A study of Mus musculus with 4 samples.

Results

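The nuclear genes for the subunits of mitochondrial complex III, complex IV and ATP synthase were described across the cell types of mouse blood and between 2 ages. Every gene of the deposited blood table whose symbol begins with Uqcr, Cox4, Cox5, Cox6, Cox7, Cox8 or Atp5 was taken, which gave 39 of 14697 genes. Of these, 8 belong to complex III, 14 to complex IV and 17 carry an Atp5 symbol. Peripheral blood came from C57BL/6 female mice of 4 months (young) or 24 months (old), with no genetic change and no treatment. Blood of 2 mice was pooled for each sample, so that each age had 2 samples (n = 2), and mononuclear cells were prepared on a density gradient with lysis of red cells before 10x Chromium 3′ single-cell sequencing. Tests between ages measured the spread between pools, since single mice cannot be traced within one.

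Complex III passes electrons from ubiquinol to cytochrome c and complex IV passes them from cytochrome c to oxygen. Both pump protons across the inner mitochondrial membrane, and ATP synthase uses the returning protons to make ATP. A few core subunits are encoded by mitochondrial DNA, and all others are encoded in the nucleus and imported. Lymphocytes at rest depend largely on this route for ATP, and monocytes and lymphocytes add glycolysis when they are activated. Some subunits have forms for particular tissues, such as Cox6a2 and Cox7a1 in heart and skeletal muscle, Cox4i2 in lung, and Cox6b2 in testis.

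The 4 libraries held 14588 cells and 50780376 UMIs, with 9521253 to 18658072 UMIs per library and medians of 2233 to 3482 UMIs per cell, the higher medians in the old samples. The 39 genes took 1.18% to 1.31% of the UMIs of a library. Among the cell barcodes, 108 occurred in 2 libraries. Cell types were gated on raw UMIs of marker genes, with the same limits in every sample, and a type name stands for cells that passed its gate. Genes outside the gates had levels that fit the names. Over all cells of a type, Ebf1, a B cell factor, was at 1575 counts per 1000000 UMIs (CPM) in Fcer2a+ B cells and 9.07 CPM in classical monocytes. Gzma, a granzyme, reached 13311 CPM in NK cells. Ccr2, a receptor of classical monocytes, was at 1353 CPM in those cells and at 224 CPM in nonclassical monocytes, where Treml4 was at 332 CPM against 49.0 CPM. The gates gave 2389 Fcer2a+ B cells, 2358 S100a6+ B cells, 4039 other B cells, 454 Cd4 T cells, 795 Cd8 T cells, 381 NK cells, 237 classical monocytes, 233 nonclassical monocytes, 69 Cd209a+ dendritic cells (DC) and 574 red blood cells (RBC). Classical monocytes numbered only 21 and 20 in the young samples and 111 and 85 in the old samples.

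Promoters of the genes were read from RefSeq annotation on build GRCm38.p6, in windows from 250 bases before to 50 bases after each start. A window was found for 32 of the 39 genes. Atp5a1, Cox4i1, Cox6a2, Cox6c, Uqcrb, Uqcrc2 and Uqcrq had no entry. The letters GCGC, then any base, then TGCGC, the core of the motif of NRF1, a factor known to act on respiratory chain genes, were searched on both strands and lay in 8 of the 32 promoters (25%). They lay in 10.8% of the 10655 genes of the blood table with a window and in 5.19% of all 27025 genes with one. The letters CTTCCGG, the core bound by ETS factors such as GABPA, lay on either strand in 10 of the 32 promoters against 19.0% and 9.93% of those sets. At least 1 of the motifs lay in 15 of the 32 promoters (46.9%), against 27.3% and 14.0%. A match of letters describes the window and does not show binding. The stretches before the start of 4 genes are printed 5′ to 3′ on the strand of the gene, with the motif in capitals. The stretches of Atp5e and Uqcr11 carry the ETS letters, and those of Atp5h and Cox6a1 carry the NRF1 letters. Windows of Atp5h and Cox6a1 also held the ETS letters, outside the printed stretches. All 4 genes, like most genes tested, were higher in classical monocytes than in Fcer2a+ B cells below. Uqcrc1, Atp5g2 and Atp5g3, which were not called there, also held the NRF1 letters. A link between the motifs and that difference was not tested.
Atp5e, chr2:174464106-174464305, minus strand: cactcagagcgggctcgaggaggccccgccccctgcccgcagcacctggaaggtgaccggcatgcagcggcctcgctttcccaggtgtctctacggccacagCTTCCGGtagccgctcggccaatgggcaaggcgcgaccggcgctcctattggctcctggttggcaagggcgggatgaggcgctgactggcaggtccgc
Uqcr11, chr10:80406831-80407030, minus strand: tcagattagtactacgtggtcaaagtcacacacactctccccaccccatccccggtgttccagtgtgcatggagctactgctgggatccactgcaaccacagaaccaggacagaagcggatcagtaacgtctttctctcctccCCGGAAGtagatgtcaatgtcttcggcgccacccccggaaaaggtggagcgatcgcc
Atp5h, chr11:115419963-115420127, minus strand: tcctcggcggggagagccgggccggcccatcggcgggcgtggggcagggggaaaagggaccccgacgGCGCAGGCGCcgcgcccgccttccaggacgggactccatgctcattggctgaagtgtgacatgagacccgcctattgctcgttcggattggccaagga
Cox6a1, chr5:115348982-115349129, minus strand: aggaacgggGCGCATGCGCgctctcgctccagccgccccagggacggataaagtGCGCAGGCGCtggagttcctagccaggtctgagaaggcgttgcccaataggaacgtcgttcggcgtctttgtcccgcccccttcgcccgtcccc
The Cox6a1 stretch holds the NRF1 letters at 2 places.

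Of the 39 genes, 34 had a mean level of 50 CPM or more over the 10 types, from 105 to 1047 CPM. Libraries counted 1 end of each transcript, so that levels of different genes were compared without scaling by length. All 34 were lowest in RBC, where haemoglobin took 44.4% to 55.9% of the UMIs. Without RBC, the highest type exceeded the lowest by 1.20 to 2.89 times per gene, with a median of 1.74. Classical monocytes were the highest type for 17 of the 34 genes, NK cells for 6, DC for 5 and nonclassical monocytes for 3, and Fcer2a+ B cells were the lowest for 15.

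**Figure D1:**
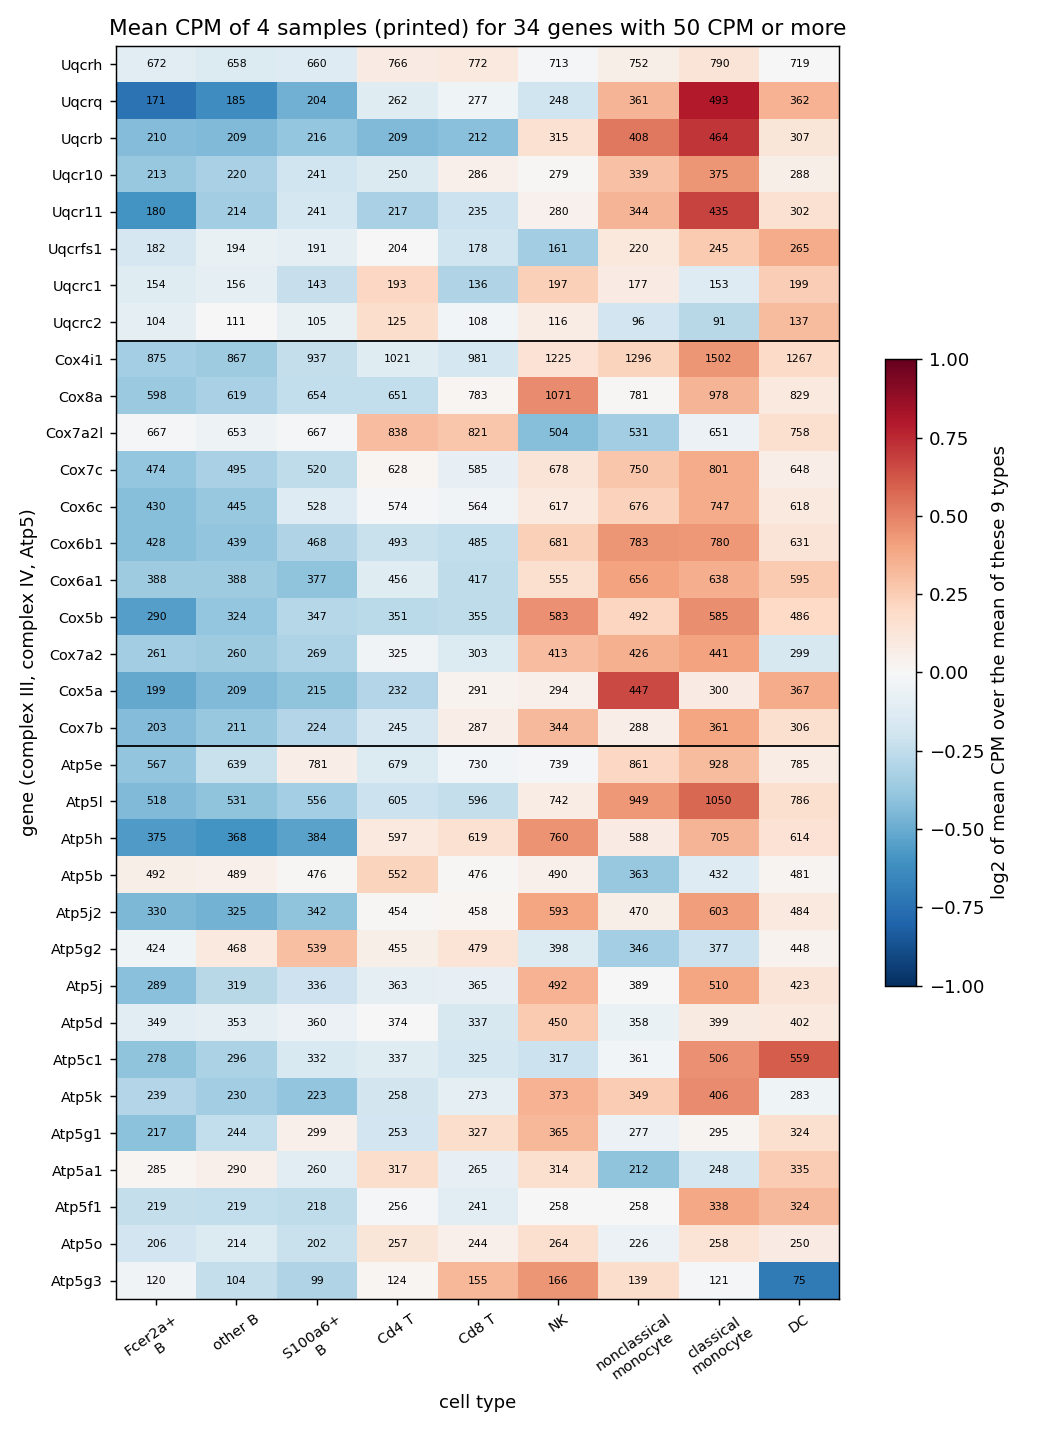
Mean level in CPM (printed, mean of the 4 samples) of the 34 genes of 50 CPM or more in 9 cell types, coloured by log2 of that mean over the mean of the 9 types. The column of classical monocytes holds the highest value for 17 genes, and the columns of B cells hold most of the low values.

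In complex III, Uqcrh, the hinge protein beside cytochrome c1, had the highest level, with a mean of 685 CPM over types. It varied little: 651, 628, 700 and 711 CPM in Fcer2a+ B cells (2 young samples, then 2 old samples) and 770, 812, 806 and 772 CPM in classical monocytes. Uqcrq and Uqcrb, small subunits near the site of ubiquinone, followed with means of 268 and 265 CPM and varied more. Uqcrq was at 172, 161, 189 and 161 CPM in Fcer2a+ B cells and at 462, 501, 511 and 498 CPM in classical monocytes. All 4 samples of the classical monocytes thus lay above every sample of the B cells. Uqcrb was at 210 ± 8.83 CPM (SD, n = 4) in Fcer2a+ B cells and at 464 ± 55.4 CPM in classical monocytes.

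In complex IV, Cox4i1, the common form of a regulatory subunit, led all 39 genes with a mean of 1047 CPM over types. It was at 810, 823, 860 and 1007 CPM in Fcer2a+ B cells and at 1492, 1397, 1467 and 1653 CPM in classical monocytes. Cox8a, a small membrane subunit, followed with 731 CPM. It was at 1071 ± 59.7 CPM in NK cells and at 598 ± 21.7 CPM in Fcer2a+ B cells. Cox7a2l, which helps to join complexes III and IV into supercomplexes and is not a standard subunit of free complex IV, had 643 CPM and another order of types. It was highest in Cd4 T cells (938, 892, 726 and 797 CPM) and, outside RBC, lowest in NK cells (497, 550, 531 and 437 CPM), without overlap.

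In ATP synthase, the 3 highest means belonged to Atp5e (707 CPM), the epsilon subunit of the central stalk, Atp5l (668 CPM), subunit g of the membrane part, and Atp5h (524 CPM), subunit d of the peripheral stalk. Atp5l was at 495, 516, 510 and 551 CPM in Fcer2a+ B cells and at 1148, 943, 1076 and 1032 CPM in classical monocytes. The means of Atp5h were 375 ± 21.3 CPM in Fcer2a+ B cells and 760 ± 123 CPM in NK cells. Atp5a1 and Atp5b, the alpha and beta subunits that form the catalytic head, had another order, with Atp5b highest in Cd4 T cells (552 CPM) and lowest, outside RBC, in nonclassical monocytes (363 CPM).

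Forms known from other tissues were near 0 in most types, and Cox4i2, Cox7b2, Cox8b and Cox8c were not among the genes of the table. Cox7a1, the muscle form, had at most 3.56 CPM in any type. Cox6b2, the testis form, had a UMI in 13 of 69 DC (18.8%, 95% exact binomial interval 10.4% to 30.1%) and in 3 of 2389 Fcer2a+ B cells. It also had one in 18 of 237 classical monocytes (7.59%), 22 of 574 RBC and 45 of 2358 S100a6+ B cells. The level of Cox6b2 was 26.2, 66.5, 37.7 and 40.0 CPM in DC. Median depth was 5119 UMIs in DC, 4526 in classical monocytes and 2116 in Fcer2a+ B cells. When cells were thinned to 1000 UMIs, 2 of the 13 DC, 5 of the 18 classical monocytes and 0 of the 3 Fcer2a+ B cells kept one. Cox6a2 had 0 UMIs in Fcer2a+ B cells, Cd4 T cells, both monocyte types and RBC. In DC it had 8, 12, 0 and 9 UMIs, and all 29 UMIs lay in 3 cells. It also had 40 UMIs in 10 of 4039 other B cells, 19 UMIs in 6 of 2358 S100a6+ B cells and 1 UMI in 1 of 795 Cd8 T cells. In NK cells 7 of 381 (1.84%) held 8 UMIs of Cox6a2, and 6 of these 7 cells came from young sample 2. The cells of the 4 samples that passed no gate had 49, 1, 5 and 0 UMIs of Cox6a2. Intervals cover counting error only.

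Atp5g1, Atp5g2 and Atp5g3 encode the same mature rotor subunit c, and Atp5g2 had the highest mean of the 3 in all 10 types. Atp5g1 made up 28.6%, 29.7%, 29.3% and 26.9% of the UMIs of the 3 genes in Fcer2a+ B cells, with the ages overlapping. In classical monocytes its share was 27.6% and 32.3% in the young samples and 46.5% and 39.8% in the old samples. The young shares rested on only 16 of 58 and 20 of 62 UMIs. Their exact binomial intervals were 16.7% to 40.9% and 20.9% to 45.3%. Those of the old samples were 41.8% to 51.2% and 34.7% to 45.0%, and both young intervals overlapped that of old sample 2. In nonclassical monocytes the shares were 44.8% and 33.8% in young and 39.5% and 25.6% in old samples, with the ages overlapping. Within the Cox7a family, Cox7a2l made up 51.1% to 59.1% of the UMIs in NK cells and 66.9% to 77.4% in Cd8 T cells. Atp5s and Atp5sl bear the symbol but are not subunits of ATP synthase. Atp5s was at 5.45 CPM or less in every type. Atp5sl, known as a factor for assembly of complex I, was highest in Fcer2a+ B cells, at 71.1, 55.4, 51.6 and 41.4 CPM.

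Types were compared within samples with edgeR's quasi-likelihood test on UMIs summed per sample and type, with Benjamini-Hochberg adjustment over all genes tested. Classical monocytes, the Ly6c2-high monocytes that enter inflamed tissue, were first compared with Fcer2a+ B cells, which carry the IgE receptor CD23 of mature follicular B cells. Of 35 genes tested, 27 were higher in classical monocytes and 1 was lower, while the test called 30.0% of all genes higher and 28.9% lower. The median log2 difference was 0.83 over the 35 genes and −0.06 over all genes tested. By complex, 6 of 8 genes of complex III, 10 of 11 of complex IV and 11 of 16 with an Atp5 symbol were higher.

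The largest differences lay in small subunits of complex III. Uqcrq was higher by 1.60 on the log2 scale (SE 0.11, edgeR adjusted p = 9.22e-13). Uqcr11, a small accessory subunit, was at 185, 196, 181 and 157 CPM in Fcer2a+ B cells and at 367, 370, 532 and 469 CPM in classical monocytes, higher by 1.44 (SE 0.13). Uqcrb was higher by 1.26 (SE 0.11). Cox5b, a zinc-binding subunit on the matrix side of complex IV, was higher by 1.11, from 290 ± 26.6 to 585 ± 84.4 CPM. Atp5l was higher by 1.10. Atp5sl was the gene that was lower, with a log2 difference of −1.03 (SE 0.30, edgeR adjusted p = 0.0049), with 54.9 ± 12.3 CPM in the B cells and 18.5 ± 8.95 CPM in the monocytes.

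The other 7 genes tested did not pass the test, and they are named here because they did not, after their values were seen. They were the core proteins Uqcrc1 (log2 difference 0.32) and Uqcrc2 (−0.18), the supercomplex factor Cox7a2l (0.03), the catalytic subunits Atp5a1 (−0.04) and Atp5b (−0.09), and the rotor genes Atp5g2 (−0.15) and Atp5g3 (0.08). Their edgeR adjusted p lay between 0.0901 and 0.834. Most tested genes of each complex were thus higher in classical monocytes, and Atp5a1 and Atp5b were not among them.

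Other lists gave a frame for this comparison. Complex I, which feeds electrons into the chain, had 30 of 36 tested genes higher and 0 lower. All 8 tested glycolysis genes were higher. Of 11 tested subunits encoded by mitochondrial DNA, 0 were higher and 6 were lower, with a median of −0.25. In the TCA cycle, 1 of 8 was higher and 1 lower, and of 93 proteins of the cytoplasmic ribosome 5 were higher and 79 lower.

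**Figure D2:**
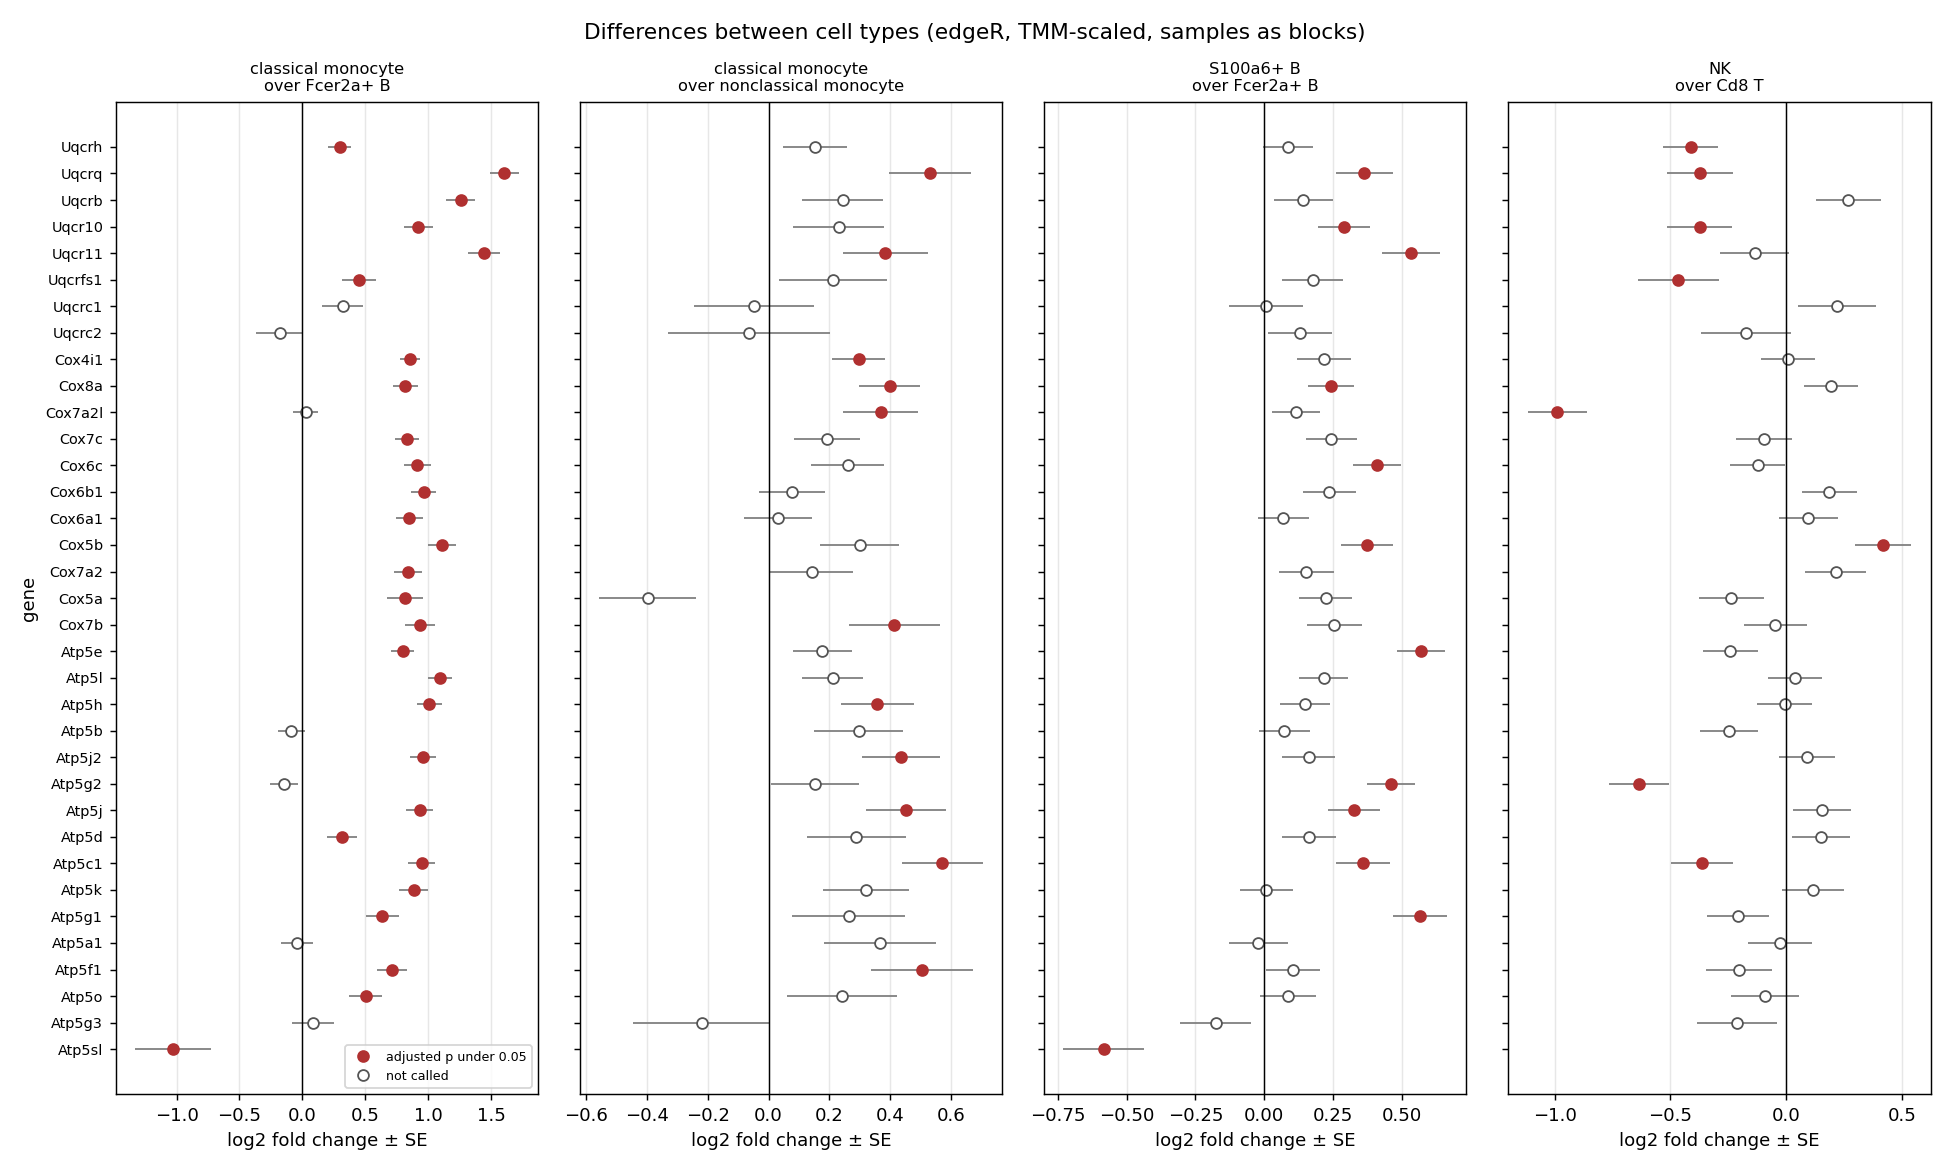
Log2 difference (point) with its SE (bar) from edgeR for each gene tested in 4 comparisons of cell types, with red points for an adjusted p under 0.05. In the panel of classical monocytes over Fcer2a+ B cells 27 genes lie in red above 0 and 1 below, and in the panel of NK over Cd8 T cells 1 lies above and 7 below.

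Classical monocytes were also compared with nonclassical monocytes, which patrol the vessel wall. Median depth was 4526 UMIs in classical and 2552 UMIs in nonclassical monocytes, and the part of depth in the gates and differences was not tested. Of 34 genes, 11 were higher in classical monocytes and 0 were lower (all genes 12.2% higher and 11.1% lower), and the medians were 0.26 and −0.02. The 11 comprised 2 genes of complex III, 4 of complex IV and 5 of ATP synthase. Atp5c1, the gamma subunit that turns inside the head, was at 474, 454, 528 and 568 CPM in classical and at 351, 312, 348 and 431 CPM in nonclassical monocytes, higher by 0.57 (SE 0.13, edgeR adjusted p = 0.00234). Every classical value lay above every nonclassical one. Uqcrq was higher by 0.53, Atp5f1, subunit b of the peripheral stalk, by 0.50, Atp5j, coupling factor 6, by 0.45 and Atp5j2, subunit f, by 0.43, with adjusted p of 0.00482, 0.0293, 0.0138 and 0.0144 in edgeR. The call was lost without old sample 1 for Atp5f1 (0.32), without young sample 2 for Atp5f1 (0.45) and Atp5j2 (0.34), and without old sample 2 for Atp5j (0.37). Cox5a, a subunit on the matrix side, had a difference of −0.40 that did not pass (adjusted p = 0.0741), with 300 ± 123 CPM in classical and 447 ± 28.4 CPM in nonclassical monocytes. Complex I had 4 of 35 genes higher and the mitochondrially encoded subunits 4 of 11. DESeq2 called 0 of the 34 genes, with an unadjusted p under 0.05 for 6, against 9.70% of all genes called and 18.2% at that p, and gates with higher limits left 1 call.

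S100a6+ B cells, which had high Crip1 (10692 CPM) and a median of 4648 UMIs per cell, were compared with Fcer2a+ B cells. Of 35 genes, 11 were higher and 1 was lower (all genes 17.9% higher and 18.7% lower), with medians of 0.18 and 0.00. Atp5e was at 559, 554, 580 and 576 CPM in Fcer2a+ B cells and at 684, 775, 914 and 752 CPM in S100a6+ B cells, higher by 0.57 (edgeR adjusted p = 0.000329). The samples of the 2 types did not overlap. Atp5g1 was higher by 0.57, Uqcr11 by 0.53, Atp5g2 by 0.46 and Cox6c, a small membrane subunit, by 0.41, and Atp5sl was lower, with a log2 difference of −0.58 (edgeR adjusted p of 0.00842 or less). Without young sample 1 the difference of Atp5sl was −0.50 and not called. The mitochondrially encoded subunits had 9 of 11 higher and complex I 9 of 36. The monocyte markers Lyz2, Ccr2 and F13a1 summed to 466, 2160, 2047 and 1174 CPM in S100a6+ B cells and to 83.2, 157, 278 and 217 CPM in Fcer2a+ B cells. With B cells of at most 1 Lyz2 UMI, a choice made after seeing the data, 7 of 35 genes were higher and 1 was lower. Of all genes, 15.3% were higher and 17.1% lower in that fit, and the medians were 0.15 for the 35 genes and −0.01 for all genes.

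NK cells and Cd8 T cells, the cytotoxic lymphocytes of blood, were compared in the same way. Of 34 genes, 1 was higher in NK cells and 7 were lower (all genes 12.0% higher and 13.8% lower), with medians of −0.09 and 0.04. Cox7a2l was at 936, 790, 670 and 888 CPM in Cd8 T cells, above all 4 values in NK cells, a log2 difference of −0.99 (SE 0.13, edgeR adjusted p = 8.9e-09). The log2 difference was −0.64 for Atp5g2, −0.46 for Uqcrfs1, the Rieske iron-sulphur protein, −0.41 for Uqcrh and −0.37 for Uqcr10, a small subunit of complex III, with adjusted p of 9.36e-05, 0.0447, 0.00606 and 0.0432 in edgeR. Cox5b was the gene that was higher, by 0.42 (adjusted p = 0.0067 in edgeR), with 583 ± 62.8 CPM against 355 ± 33.1 CPM. The call was lost without young sample 1 for Uqcrfs1 (−0.15) and Uqcr10 (−0.45), without young sample 2 for Cox5b (0.41), Uqcrh (−0.33) and Uqcr10 (−0.26), and without old sample 1 for Uqcr10 (−0.35). All 10 tested mitochondrially encoded subunits were lower in NK cells (median −0.88), as were 89 of 93 proteins of the cytoplasmic ribosome.

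Directions between NK and Cd8 T cells depended on the scaling. Without TMM normalization the median of all genes moved to 0.36, 14 of the 34 genes were higher in NK cells and 1, Cox7a2l, was lower (log2 difference −0.68), with 32.5% of all genes higher and 8.33% lower in that fit. Relative to the median of all genes, the median of the 34 genes was −0.13 with TMM and −0.15 without it.

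The summed level of the 39 genes was read as a share of all UMIs of a type. RBC were gated on haemoglobin, which took 44.4% to 55.9% of their UMIs and so lowers the share of every other gene there. It was lowest in RBC (0.672% ± 0.0848, SD, n = 4), followed in ascending order by Fcer2a+ B cells (1.17% ± 0.0418), other B cells (1.20% ± 0.0517), S100a6+ B cells (1.27% ± 0.0618), Cd4 T cells (1.39% ± 0.104), Cd8 T cells (1.40% ± 0.0806), nonclassical monocytes (1.60% ± 0.0743), NK cells (1.60% ± 0.0683), DC (1.61% ± 0.127) and classical monocytes (1.80% ± 0.156). Cd4 and Cd8 T cells lay within their SD of each other, as did nonclassical monocytes, NK cells and DC.

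**Figure D3:**
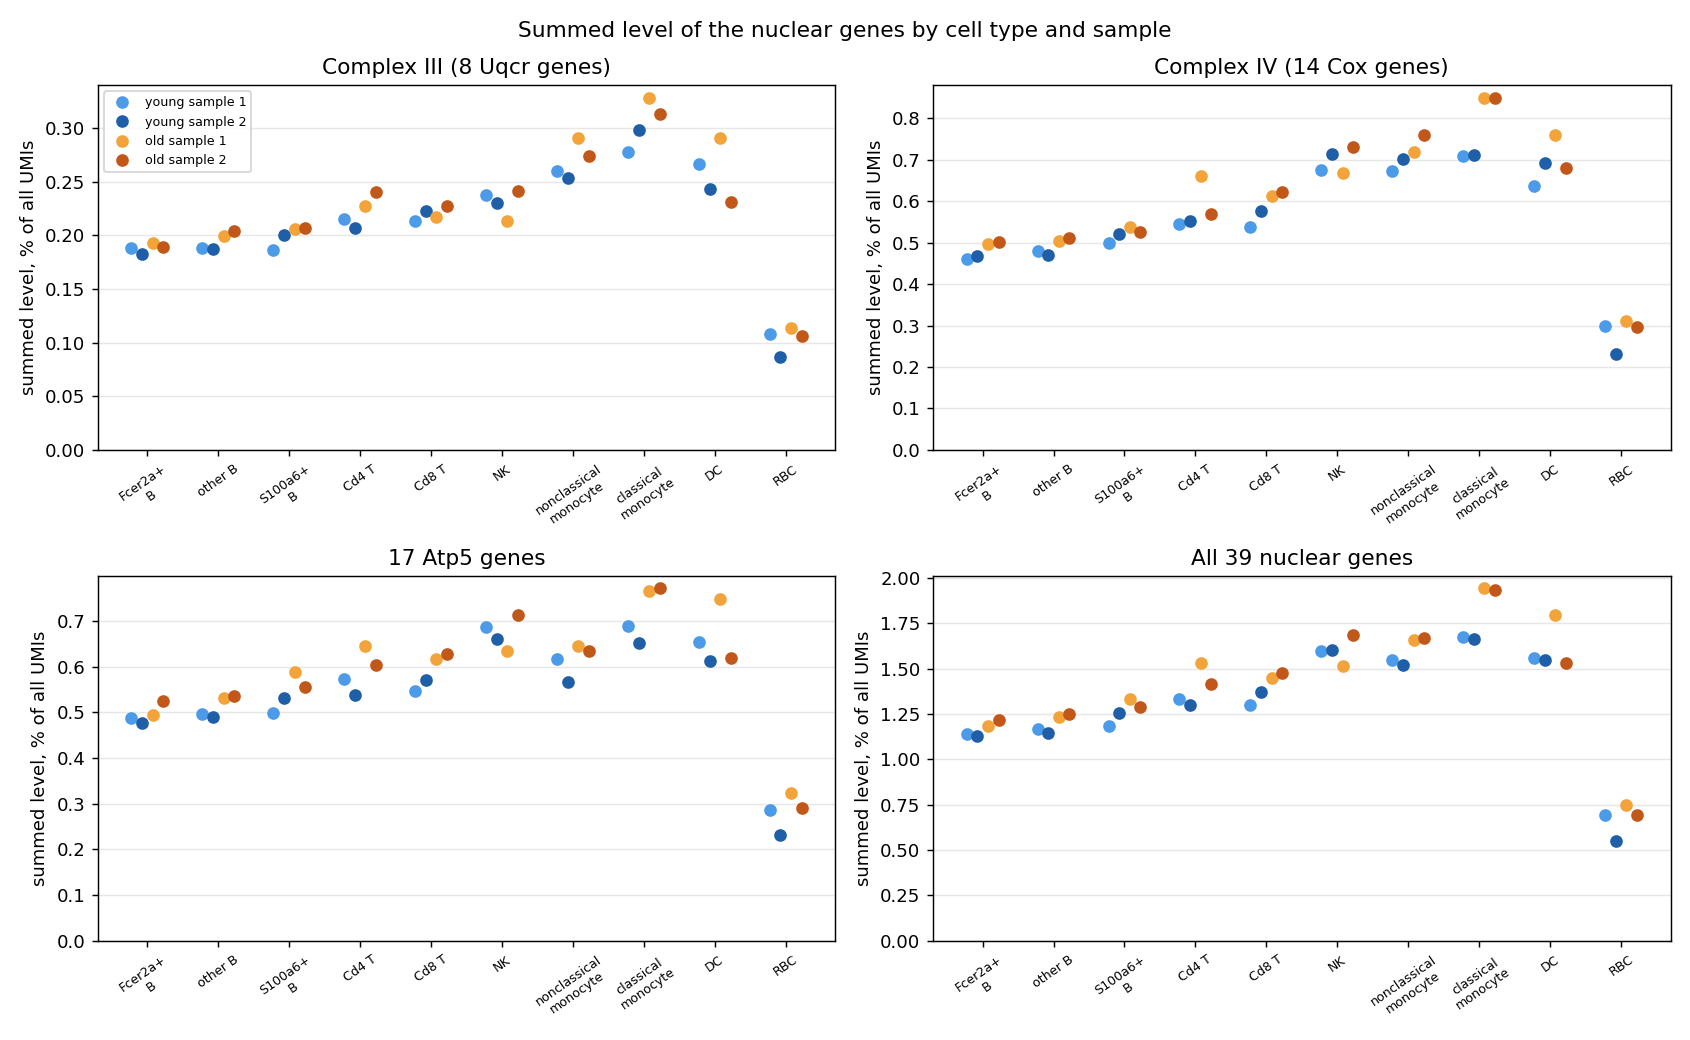
Share of the UMIs of each cell type (percent) taken by the genes of complex III, complex IV, the Atp5 genes and all 39 genes, with a point for each of the 4 samples. In classical monocytes the 2 old samples lie at 1.94% and 1.93% and the 2 young samples at 1.68% and 1.66%.

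The balance of nuclear to mitochondrially encoded subunits differed widely between types. For each UMI of the 39 genes, the 6 mitochondrially encoded subunits of complex III, complex IV and ATP synthase had 2.54 ± 0.185 UMIs in Fcer2a+ B cells, 2.91 ± 0.377 in S100a6+ B cells, 1.94 ± 0.0758 in Cd8 T cells and 1.42 ± 0.0598 in classical monocytes. NK cells had the lowest ratio, 1.12 ± 0.0973, with samples from 1.06 to 1.27. These ratios do not depend on the total by which a sample is divided.

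With age, edgeR called 0 of the 34 or 35 genes tested in each of the 10 types, and DESeq2 likewise called 0. The share of all genes called in either direction was 0.206% in Fcer2a+ B cells, 0.0245% in S100a6+ B cells, 0% in other B cells, 2.85% in Cd4 T cells, 1.94% in Cd8 T cells, 0.0399% in NK cells, 0.0614% in classical monocytes, 0.0368% in nonclassical monocytes, 0.0275% in DC and 2.53% in RBC. At an unadjusted p under 0.05 the test held for 11 of 34 genes in classical monocytes (all genes 7.16%), 6 of 35 in other B cells (16.4%), 4 of 35 in Fcer2a+ B cells (8.71%), 3 of 34 in Cd8 T cells (14.6%), 3 of 34 in RBC (14.1%), 2 of 34 in Cd4 T cells (13.9%), 1 of 34 in NK cells (4.91%), 1 of 34 in nonclassical monocytes (4.92%), 1 of 35 in DC (4.28%) and 0 of 35 in S100a6+ B cells (7.36%).

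In classical monocytes the fitted log2 difference of old over young was above 0 for 32 of 34 genes, against 46.5% of all genes tested, and its median was 0.30 against −0.04. It was above 0 for 31 of 35 genes in other B cells, 28 of 34 in nonclassical monocytes and in RBC, 28 of 35 in S100a6+ B cells, 26 of 35 in Fcer2a+ B cells, 23 of 34 in Cd8 T cells, 21 of 35 in DC, 20 of 34 in Cd4 T cells and 16 of 34 in NK cells. Over all genes tested in these types, the median log2 difference lay between −0.04 in DC and 0.01 in NK cells. Of the 34 genes tested in classical monocytes, all except 2 of complex III were fitted higher in old cells. In 18 of these 34 genes both old samples of classical monocytes lay above both young samples, and in 0 below. Of all genes in that type, 15.7% lay above and 22.0% below. Other B cells had medians of 0.15 and 0.00 and 18 genes above and 2 below (all genes 18.5% and 32.8%), and nonclassical monocytes had 0.15 and −0.01, with 11 above and 0 below (15.8% and 17.4%). NK cells had −0.01 and 0.01, with 5 above and 5 below (13.2% and 20.4%). In the other types the genes above and below numbered 17 and 4 in Fcer2a+ B cells (all genes 16.1% and 23.7%), 15 and 1 in S100a6+ B cells (21.0% and 17.5%), 14 and 3 in Cd4 T cells (30.8% and 14.8%), 16 and 1 in Cd8 T cells (26.0% and 18.1%), 6 and 4 in DC (13.8% and 16.0%) and 17 and 0 in RBC (24.6% and 13.3%).

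In classical monocytes the lowest p belonged to Cox5a, described here and in the next sentences with Atp5g1, Cox6c, Uqcr11 and Uqcrc1 after their values were seen. Cox5a was at 166 and 227 CPM in the young samples and at 420 and 387 CPM in the old samples, a log2 difference of 1.10 (SE 0.24, edgeR adjusted p = 0.12). Atp5g1 was at 189 and 239 CPM and at 405 and 346 CPM, a difference of 0.87 (SE 0.24, adjusted p = 0.238 in edgeR). Neither pair of ages overlapped, and neither difference passed the test. Cox6c was at 580 and 657 CPM in young and at 975 and 775 CPM in old classical monocytes (0.56, adjusted p = 0.361 in edgeR). The adjusted p of Cox5a ranged from 0.000459 with no rule on detection to 1.00 with DESeq2 over 13 alternatives, of which 5 gave a call, and its difference stayed between 0.88 and 1.43. The 21 and 20 classical monocytes of the young samples limit the precision of the young values.

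**Figure D4:**
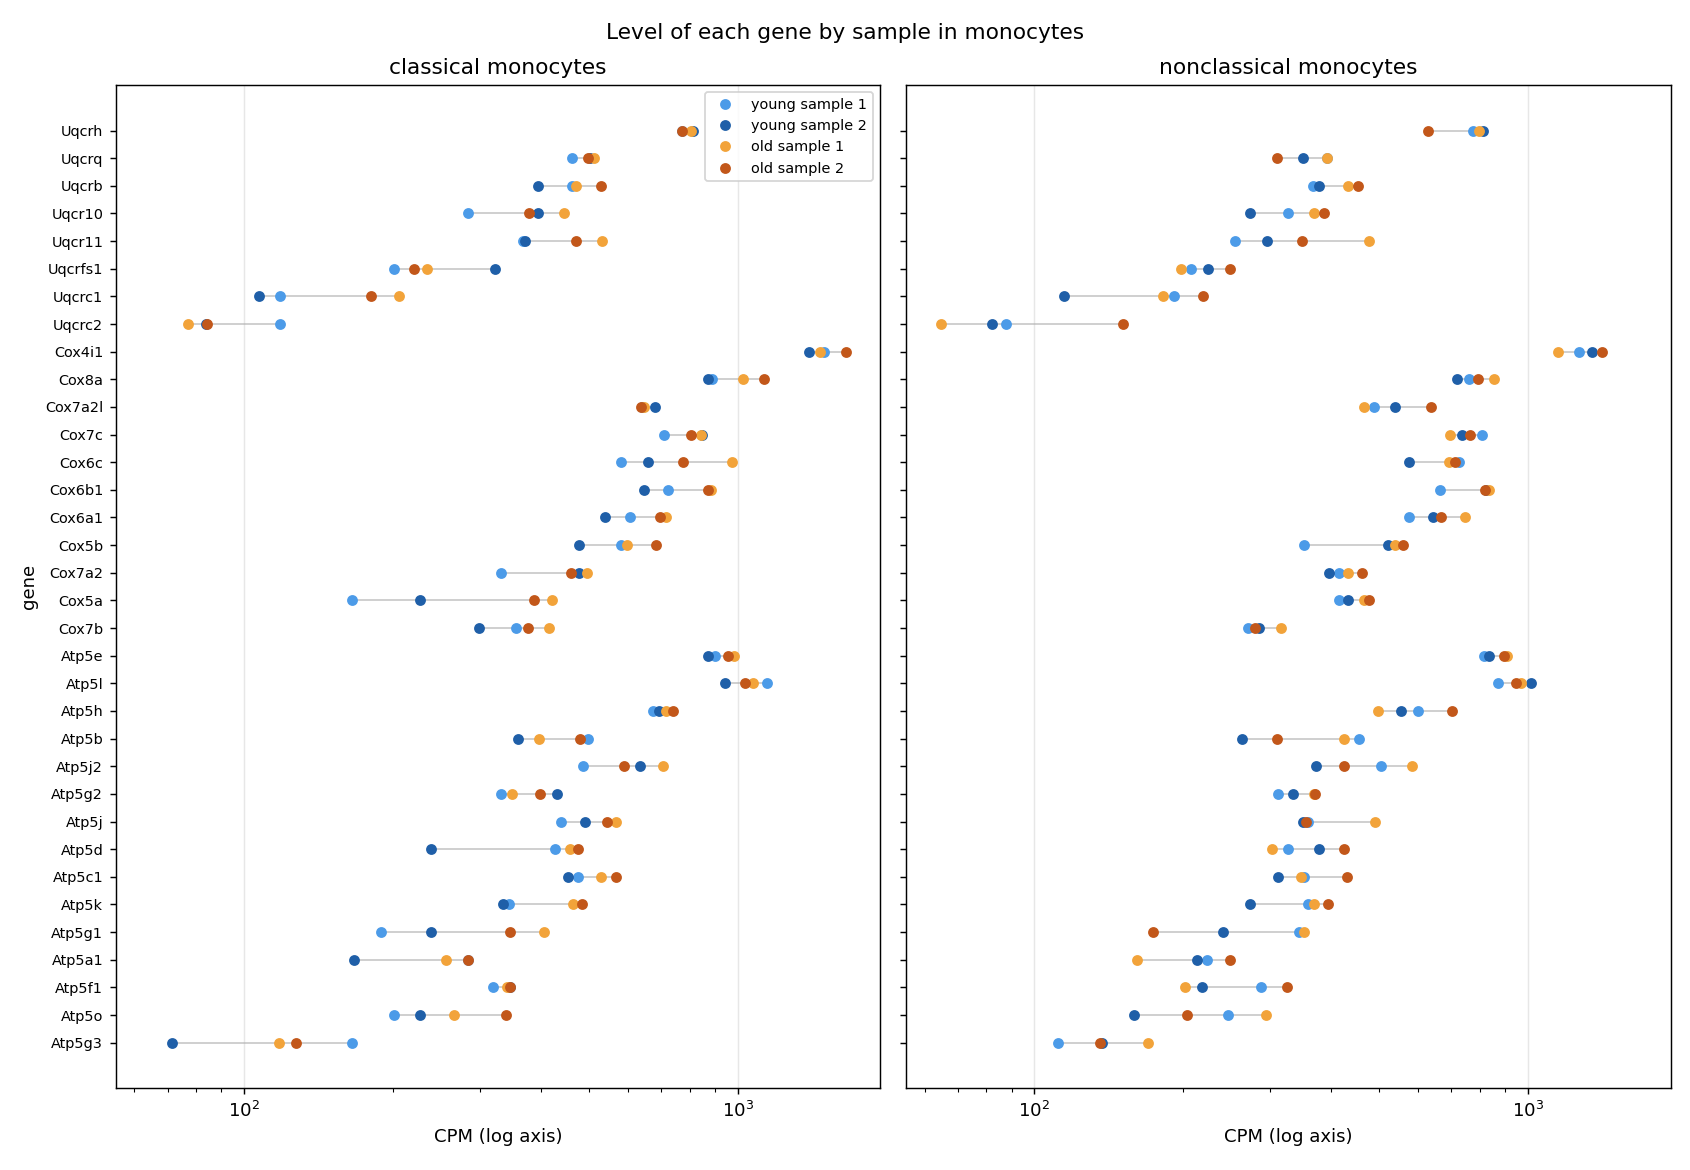
Level in CPM (log axis) of each gene in the 2 young and 2 old samples, in classical and in nonclassical monocytes. For Cox5a the classical monocytes lie at 166 and 227 CPM in young and at 420 and 387 CPM in old samples, and the nonclassical ones at 415 to 476 CPM.

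The difference of the age effects between the monocyte types was tested as an interaction. It was called for 0 of 34 genes by edgeR, with 0.135% of all genes called, and for 0 by DESeq2. At an unadjusted p under 0.05 it held for Cox5a (0.87, SE 0.33, edgeR adjusted p = 0.745) and Atp5g1 (0.88, SE 0.37, edgeR adjusted p = 0.832). Cox5a was at 415 and 433 CPM in young and at 465 and 476 CPM in old nonclassical monocytes. Among monocytes its lowest values were thus those of the young classical samples, which had only 21 and 20 cells. Between S100a6+ and Fcer2a+ B cells the interaction was likewise called for 0 of 35 genes (all genes 0.468%), with Cox4i1 alone at an unadjusted p under 0.05 (−0.38, SE 0.16, edgeR adjusted p = 0.495), and for 0 by DESeq2.

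Summed over the 39 genes, old classical monocytes had 1.94% and 1.93% of UMIs and young ones 1.68% and 1.66%, a fold of 1.16. Complex III took 0.278% and 0.299% in young and 0.328% and 0.313% in old samples, complex IV 0.710% and 0.712% against 0.850% and 0.849%, and the Atp5 genes 0.689% and 0.652% against 0.766% and 0.773%. In all 3 groups the old samples lay above the young samples without overlap. With each cell thinned to 1000 UMIs, a classical monocyte held on average 17.7 and 17.8 UMIs of the 39 genes in young and 19.9 and 19.2 in old samples. The 44 genes of complex I had a fold of 1.18 and glycolysis a fold of 1.32, in the same direction and without overlap. Cyc1, the cytochrome c1 of complex III, and Cycs, the cytochrome c that carries electrons to complex IV, summed to lower values in old cells, at 0.0533% and 0.0525% in young and 0.0445% and 0.0402% in old samples. Platelet markers (Gng11, Itga2b, Gp9 and Clec1b) summed to 0 CPM in both young samples and to 73.2 and 55.3 CPM in the old samples of classical monocytes, and to 0 and 2.69 against 168 and 97.6 CPM in Fcer2a+ B cells, and their part in these results was not tested.

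Old samples also lay above young ones in the 3 groups of B cells (folds of 1.06 to 1.08), in Cd4 T cells (1.12), in Cd8 T cells (1.10) and in nonclassical monocytes (1.08), and the ages overlapped in NK cells, DC and RBC. Monocyte markers summed to 64.7 and 143 CPM in young and to 370 and 1174 CPM in old Cd8 T cells, and platelet markers to 1.58 and 1.30 against 105 and 91.3 CPM. In S100a6+ B cells platelet markers summed to 0 and 13.3 CPM in young and to 109 and 61.6 CPM in old samples, and neutrophil markers reached 186 CPM in old sample 1 against 5.21 to 14.7 CPM in the others. The part of these markers in the differences was not tested. In Cd4 T cells with 0 S100a6 UMIs, of which the old samples had only 7 and 8, the median difference of the 34 genes was −0.21 (all genes −0.12), and it was −0.045 with gates on thinned cells, against 0.091 in all Cd4 T cells. Ribosomal proteins took 39.7% and 39.1% of UMIs in young and 29.3% and 33.5% in old Cd4 T cells, and 43.6% and 40.8% against 37.2% and 37.4% in Cd8 T cells, and their part in the difference was not tested beyond the choice of total. Divided by the UMIs outside ribosomal proteins and mitochondrially encoded subunits, the 39 genes took 2.34% and 2.26% in young and 2.27% and 2.24% in old Cd4 T cells. In Cd8 T cells these shares were 2.45% and 2.45% against 2.44% and 2.51%. In classical monocytes they were 2.22% and 2.24% against 2.56% and 2.59%, so that the ages stayed apart with either total.

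**Figure D5:**
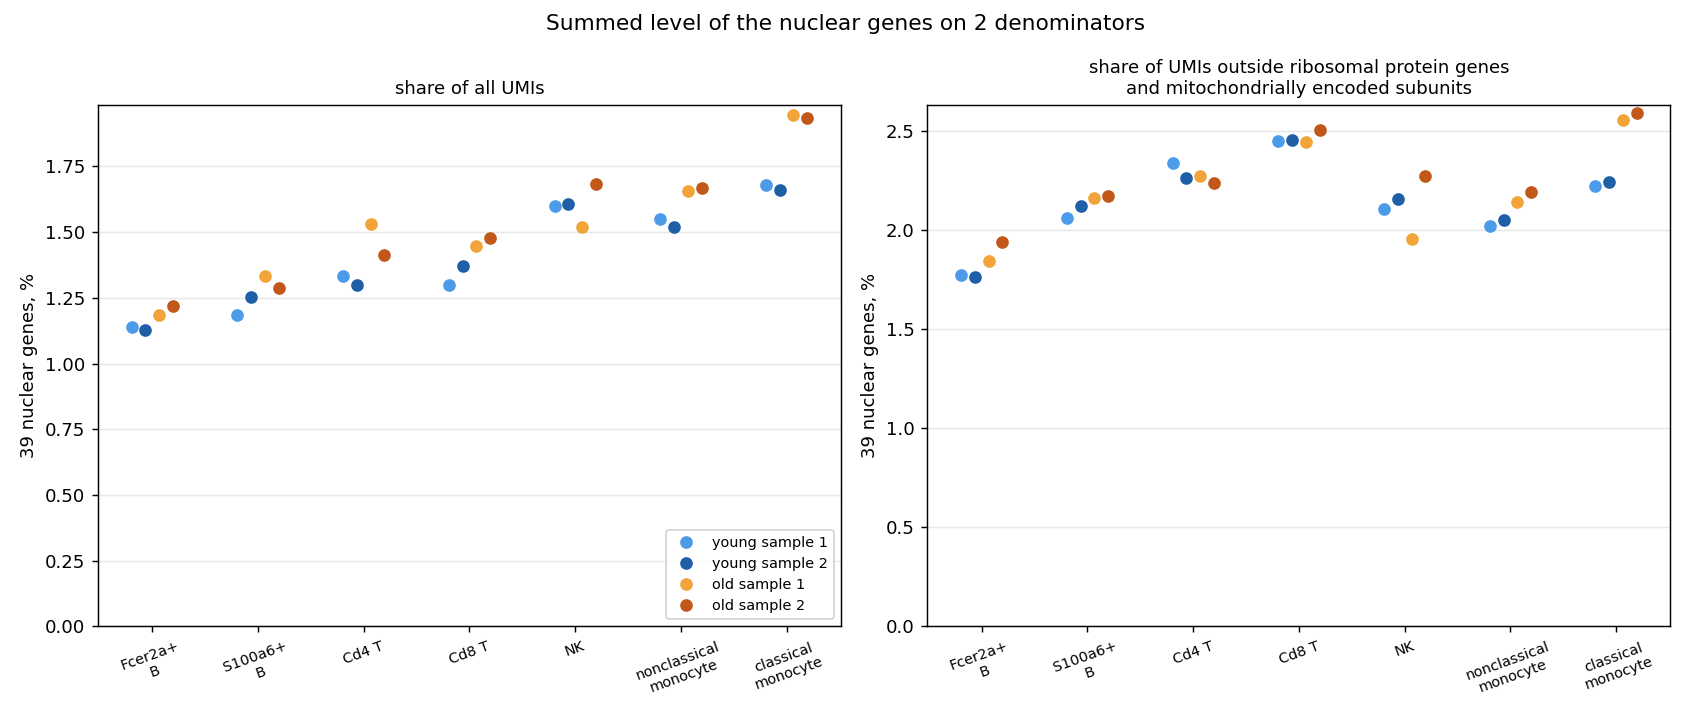
Share (percent) of the 39 genes in 7 cell types, of all UMIs and of the UMIs outside ribosomal proteins and mitochondrially encoded subunits, with a point per sample. The old Cd4 T cells lie above the young ones with the first total and overlap them with the second. The old classical monocytes lie above the young ones with both.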

How the data were processed

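Reads of 10x Chromium 3′ libraries were turned into UMI counts per gene and cell by the authors, with Cell Ranger and the mm10 genome. Both samples of an age were merged, and cells were kept in Seurat 2.3.0 by limits on the number of genes and on mitochondrial reads. The sources used here do not say whether merging made depths equal. The deposited counts, which are whole numbers, entered without change, and a deposited table of cells gave the sample of each. The genes and lists, the gates and the named genes were chosen with earlier results of these data known.

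Cells were gated on raw UMIs. B cells had at least 3 UMIs of Cd79a, Cd79b and Ms4a1 and at most 1 of Cd3d, Cd3e and Cd3g, Fcer2a+ B cells at least 1 Fcer2a and at most 1 S100a6 UMI, and S100a6+ B cells at least 3 S100a6 and 0 Fcer2a UMIs. T cells had at least 2 Cd3 UMIs and were split by Cd4 against Cd8a and Cd8b1, and NK cells at least 2 UMIs of Ncr1, Klrb1c and Klre1. Monocytes had at least 1 Csf1r UMI, at least 4 of Csf1r and Lyz2, and 0 of Cd209a, and were classical with at least 4 Ly6c2 UMIs and nonclassical with at most 1 and at least 2 of Csf1r. DC had Cd209a, and RBC at least 10% haemoglobin. No doublet caller was run, and the B and T cell gates bound each other's markers but not those of monocytes. Cells that passed no gate (2311), 38 basophils, 56 macrophages and 654 droplets with platelet RNA were left out of the tests.

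UMIs were summed per sample and type. A gene was tested if at least 10% of the cells had a UMI in each age or type, and a type if every sample had at least 5 cells. Tests used edgeR 4.0.16 (glmQLFTest, TMM, Benjamini-Hochberg, threshold 0.05) in R 4.3.3, without a block between ages and with the sample as a block between types, and were tested on simulated data. Alternatives were DESeq2 1.42.0, no TMM, other filters, gates and blocks, and leaving out each sample. Named were the 3 genes per complex with the highest mean, tissue forms, Atp5s and Atp5sl, the 5 called genes with the largest difference per direction between types, and genes called with age.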

Additional observations from a re-analysis of the deposited data

How the results depend on the processing

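With age, 0 genes were called in classical monocytes, against 3 with no rule on detection (Cox5a, Atp5g1 and Cox6c) and 1 (Cox5a) with a replicate block, with gates of higher limits and with monocytes gated on Lyz2 alone. In other B cells the count was 1 with no rule on detection, with gates on cells thinned to 1000 UMIs and with crossed pairing as a block. Leaving out 1 sample gave 0 to 1 in classical monocytes (1 without old sample 2) and 0 to 3 in other B cells (3 without old sample 1 and 1 without old sample 2). The ages' samples shared only a number (same-number correlations of −0.24 to 0.01 over types), and the crossed pairing called 213 genes of other B cells and the numbered one 99.

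Classical over nonclassical monocytes, with 11 calls, gave 0 with DESeq2, 6 without TMM, 6 with no rule on detection, 7 with no replicate block, 1 with gates of higher limits and 6 to 8 when 1 sample was left out, with 6 without young sample 1, 7 without young sample 2 and 6 without old sample 1. NK over Cd8 T cells, with 8 calls, gave 3 with DESeq2, 15 without TMM, 4 with no rule on detection, 4 with no replicate block, 5 with gates of higher limits and 3 to 7 when 1 sample was left out, with 4 without young sample 1, 3 without young sample 2 and 5 without old sample 1. S100a6+ over Fcer2a+ B cells, with 12 calls, gave 7 without TMM and 8 to 12 without 1 sample, and classical monocytes over Fcer2a+ B cells gave 26 to 29. The cause of these moves was not tested.

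The log2 ratio of old to young of the summed level moved with the total outside ribosomal and mitochondrially encoded genes from 0.10 to 0.053 in S100a6+ B cells, from 0.16 to −0.028 in Cd4 T cells, from 0.13 to 0.014 in Cd8 T cells, from 0.22 to 0.21 in classical monocytes and from 0.11 to 0.089 in nonclassical monocytes. With gates on thinned cells it was 0.060 in Fcer2a+ B cells (0.084 otherwise), 0.090 in Cd4 T cells and 0.16 in nonclassical monocytes, where the median over cells gave 0.18 and gates of higher limits 0.13. Monocytes gated on Lyz2 alone gave 0.23 in classical monocytes. Cd4 T cells with 0 S100a6 UMIs gave 0.096, with 1.31% and 1.26% in young and 1.45% and 1.29% in old samples. Leaving out 1 sample gave −0.079 to 0.072 in NK cells (−0.079 without old sample 2), 0.063 to 0.14 in S100a6+ B cells (0.063 without young sample 1) and 0.10 to 0.22 in Cd4 T cells (0.10 without old sample 1). The gate on Lyz2 alone, the crossed pairing, the summed level in Cd4 T cells with 0 S100a6 UMIs and the limit on Lyz2 in B cells were chosen after seeing the data. Between types, 23 pairs of a named gene and a comparison had 217 values under alternatives, and some genes were named in more than 1 comparison. Of these values, 182 kept direction and call, 35 lost the call and 0 reversed. Gates on thinned cells in classical monocytes (3 and 4 young cells) and Cd8 T cells with at most 1 Ccl5 UMI (3 cells in old sample 1) were not run.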

Other observations

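Cox6a2, the heart and muscle form of a complex IV subunit, was concentrated in a few cells of the blood, which were looked for after its values were seen. Siglech, a gene known from plasmacytoid dendritic cells, was used to sort them, and no cell type was assigned. Of 19 cells with at least 2 Siglech UMIs, 11 (57.9%) had Cox6a2, with 118 UMIs or 1139 CPM over the 19 cells, against 560 CPM of Cox6a1, the form found in most tissues. These 11 cells came from all 4 libraries (6 of 7 and 1 of 3 cells in the young samples, 2 of 3 and 2 of 6 in the old samples). Of 8 cells with 1 Siglech UMI, 2 had Cox6a2, with 10 UMIs or 286 CPM. Of 14561 cells with 0 Siglech UMIs, 22 (0.151%) had Cox6a2, with 25 UMIs in all or 0.494 CPM. Median depth was 5170 UMIs in the 19 cells and 2599 UMIs in the 14561 cells. No test was run on these groups of cells.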
